A study of Homo sapiens with 4 samples.

Results

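Ribosome biogenesis genes and MYC were followed in human SH-SY5Y cells, a neuroblastoma line with neuron-like traits, with and without exposure to sodium nitroprusside (SNP), a nitric oxide donor. The group was a list of 56 gene symbols, and 55 of them were found by name among the 58243 genes of each count table. The remaining symbol, EMG1, occurred only as 2 suffixed entries, which are given apart. RNA sequencing was done on 4 libraries: control a and control b from untreated cells, and SNP a and SNP b from cells treated for 8 h. All cells were seeded in 6-well plates and left to settle for 24 h before treatment. The protocol speaks of cells differentiated with retinoic acid and of several SNP doses; the dose behind the sequenced libraries is not given in the sources used here. It also states that treatments were run in triplicate within a single experiment, while each group here has 2 libraries, and nothing says that a and b were separate cultures. The p-values therefore measure only the spread between these libraries, which may be technical. Oxidized is the word the labels use for RNA from SNP-treated cells, and they name no step that would select such RNA.

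The summed gene counts lay between 5613144 and 8056550 per library, from reads of 75 bp at a labelled depth of 40 M reads. A floor of 3 counts corresponded to between 0.372 and 0.534 CPM (counts scaled to a library total of 1000000), counting error only, and the lowest count of any member was 23. Markers of the adrenergic neuroblastoma state were above that floor in every library for 7 of 8 genes, while TH, which encodes tyrosine hydroxylase, was at 0 in all 4; the summed level of the 8 was 2139 to 2203 CPM in control and 1626 to 1773 CPM in SNP libraries. They did not move together: DBH was at 625 and 722 CPM in control and 220 and 298 CPM in SNP libraries, while HAND2 was at 531 and 527 CPM in control and 683 and 722 CPM in SNP libraries. Of 6 mesenchymal or stromal markers, VIM, FN1 and COL1A2 were above the floor in every library, and the 6 summed to 231 to 257 CPM in control and 165 to 167 CPM in SNP libraries. Epithelial markers summed to 3.50 to 5.50 CPM, and blood markers to 0.629 to 1.30 CPM with PTPRC and HBB at 0. The part of these shifts in the results was not tested. In bulk RNA, fewer cells of a type and less RNA per cell cannot be told apart, and the labels give no batch, so a batch that coincided with the groups cannot be told apart from them either.

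Ribosomes are built in the nucleolus, where RNA polymerase I transcribes the ribosomal RNA precursor. Small nucleolar ribonucleoproteins (snoRNPs) then guide the chemical modification of that precursor, and assembly factors fold, cut and package it into the small and large subunits. MYC, a transcription factor that binds the DNA sequence called the E-box together with its partner MAX, is known to promote the expression of many of these genes, and its relative MYCN, amplified in some tumours, is the family member best known in neuroblastoma.

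MYC was lower and most of the nucleolar genes that changed were higher after SNP. All 55 members passed the filter on low counts and were tested among 14759 genes. The quasi-likelihood test of edgeR with Benjamini-Hochberg adjustment across the whole table, at a threshold of 0.05, called 33 members. Of these, 29 were higher and 4 were lower, the latter being MYC, NHP2, NOP10 and IMP3. Among all genes tested 26.2% were called, 13.6% higher and 12.6% lower, against 52.7% of the members higher and 7.27% lower. The members' median log2 fold change was 0.31, with values from -1.21 to 1.23, and the median of all genes tested was -0.0042. The 22 members that were not called had log2 fold changes between -0.32 and 0.28. For 46 members both SNP libraries lay on one side of both control libraries, 40 above and 6 below, and this separation was seen for 64% of all genes tested.

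The number called depended on which library was left out, for all genes as for the members, as given in the closing section. The members' median log2 fold change was 0.31 without control a, 0.38 without control b, 0.29 without SNP a and 0.34 without SNP b. The median of all genes tested lay between -0.012 and 0.010 in these fits. The Wald test of DESeq2 called 24 members higher and 2 lower, against 8.62% and 7.74% of all genes tested. Where libraries were scaled to the read totals implied by the deposited RPKM values (reads per kilobase, scaled by depth) in place of edgeR's TMM factors, 63.1% of all called genes were higher, against 51.9%, the median of all genes moved to 0.06, and the members' median moved to 0.39. Exons of 26 members overlap no other gene, and 14 of those 26 were called higher and 2 lower. Among all genes tested, 7241 overlap no other gene, and 1000 of those were called higher and 925 lower.

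**Figure D1:**
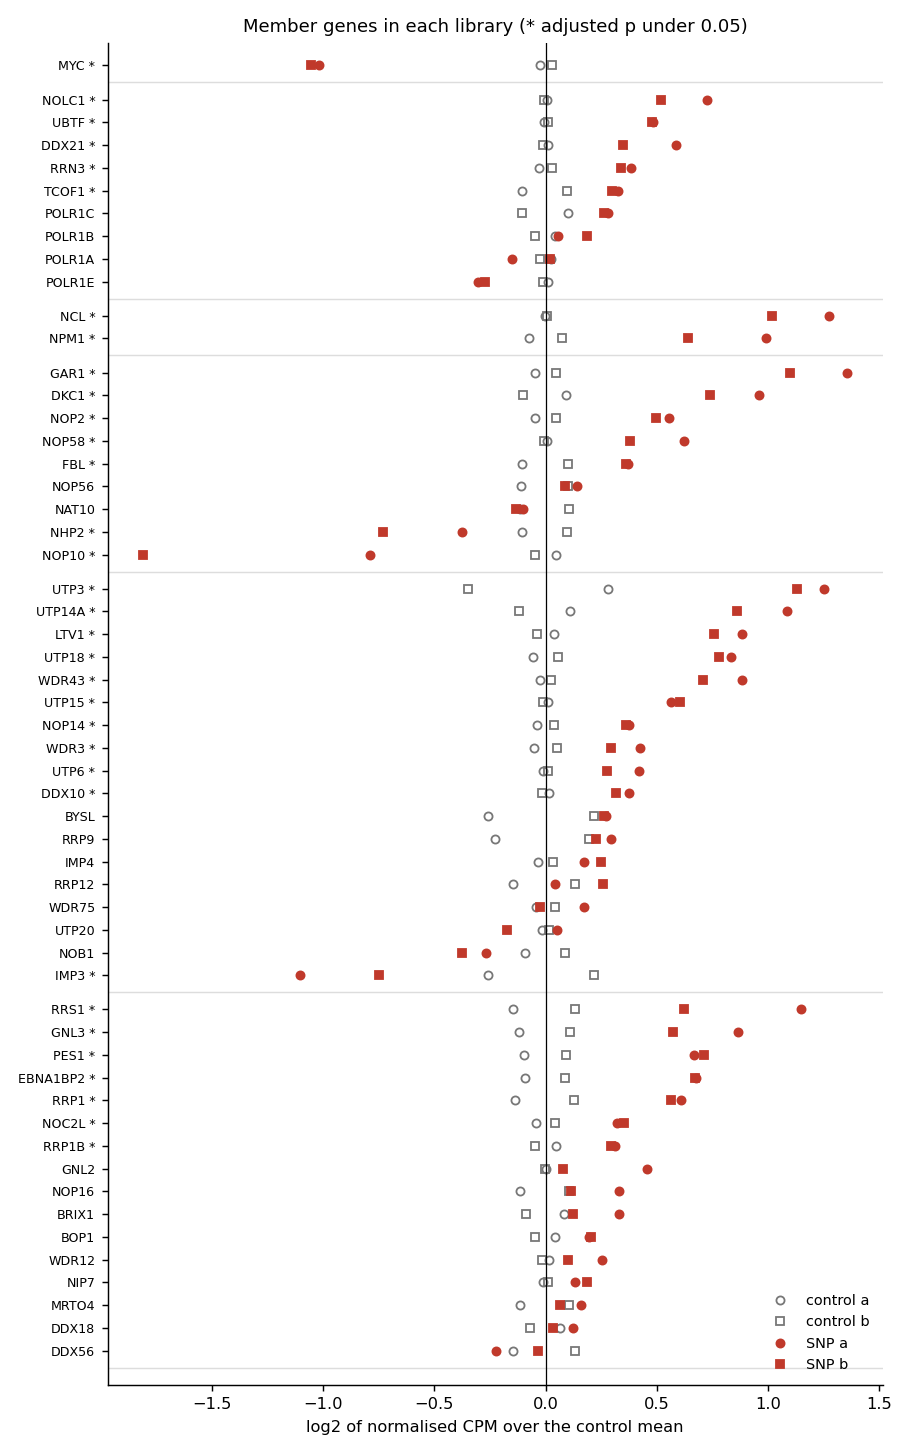
Each row is a member gene and each point a library; the x axis is the log2 of normalised CPM over that gene's control mean. Rows are grouped as MYC, RNA polymerase I transcription, NPM1 and NCL, snoRNP and rRNA modification, small subunit and large subunit, and an asterisk marks the 33 members called. The filled SNP points sit to the right of the open control points in 40 rows and to the left in 6.

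Taken as a pool, the members made up 0.438% of the counts in control a and 0.457% in control b, against 0.610% in SNP a and 0.573% in SNP b. The groups did not overlap. The mean share was 0.448 ± 0.0137% in control libraries and 0.591 ± 0.0261% after SNP (SD, n = 2 in each group, as throughout). Without NCL and NPM1 the shares were 0.398 ± 0.0114% and 0.492 ± 0.0134%. Per length, as TPM (a level per transcript length, summing to 1000000 in each library), the control means ran from 15.03 for GAR1 to 380 for DDX21, with a median of 65.3, and MYC stood at 92.9 ± 3.72 TPM. In SNP libraries NPM1 had the highest level per length, at 579 ± 79.8 TPM, and MYC was at 49.2 ± 0.781 TPM.

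NCL and NPM1, which encode abundant proteins of the nucleolus, both rose. NCL (ENSG00000115053; chromosome 2, 231453531 to 231483641, minus strand, GRCh38) encodes nucleolin, an RNA-binding protein of the nucleolus that takes part in rRNA transcription and processing. NPM1 (ENSG00000181163; chromosome 5, 171387116 to 171411137, plus strand) encodes nucleophosmin, the scaffold of the granular outer layer of the nucleolus. NCL was counted 1633 and 1428 times in controls a and b, and 4859 and 3953 times in SNP a and b. Its level rose from 253 ± 1.19 to 562 ± 70.1 CPM (log2 fold change 1.15, SE 0.0990, adjusted p 5.87e-08, edgeR quasi-likelihood test with Benjamini-Hochberg adjustment, as for every adjusted p that names no other method). NPM1 was counted 1506 and 1451 times in control and 3867 and 2948 times in SNP libraries, and rose from 245 ± 17.9 to 435 ± 73.9 CPM (log2 fold change 0.83, SE 0.109, adjusted p 1.38e-05). Both SNP libraries were above both controls for each gene, with SNP a the higher of the SNP libraries. NPM1 has processed pseudogenes, so the division of its reads is uncertain. Both genes passed the threshold under all 13 alternatives tried, where NCL ranged from 0.54 to 1.28 and NPM1 from 0.30 to 1.00 on the log2 scale. Their coding sequences are shown because log2 fold changes ran with base composition, described further on. Each line is the stretch of 60 coding bases with the largest excess of guanine over cytosine in the longest coding transcript of GENCODE 29, read 5′ to 3′ on the gene's strand with guanines in capitals.
NCL, bases 1999 to 2058 of the coding sequence: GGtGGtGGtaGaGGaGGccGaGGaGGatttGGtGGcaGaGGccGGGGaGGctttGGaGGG
NPM1, bases 496 to 555 of the coding sequence: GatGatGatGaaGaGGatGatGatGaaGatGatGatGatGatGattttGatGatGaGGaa
The NCL stretch holds 34 guanines and 6 cytosines and belongs to its glycine- and arginine-rich tail. The NPM1 stretch holds 21 guanines and no cytosine; 19 of its 20 codons begin with GA, which is how aspartate and glutamate are encoded, and it is the acidic tract of the protein. Over the whole coding sequence guanine exceeded cytosine by 12.96 percentage points in NCL and 8.62 in NPM1.

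Among the genes of RNA polymerase I transcription, none of the 4 polymerase subunits listed was called by edgeR or DESeq2, with 1 of them, POLR1E, under an unadjusted p of 0.05, and all 5 accessory factors were called higher by both tools. The difference between subunits and factors was not tested. The group of 9 had a median log2 fold change of 0.31, and 55.6% of it was called higher, against 13.6% of all genes tested. Of polymerase I subunits outside the members, TWISTNB and CD3EAP were called higher by edgeR (0.52 and 0.80, adjusted p 0.0127 and 0.0255) but not by DESeq2. POLR1D and ZNRD1, at -0.19 and -0.25, were not called by edgeR. With composition offsets, described further on, TWISTNB and the factors RRN3 and DDX21 were at 0.29, 0.13 and 0.14 and were not called. POLR1A, the largest catalytic subunit (ENSG00000068654; chromosome 2, 86020216 to 86106155, minus strand), was counted 1696 and 1420 times in control and 1836 and 2009 times in SNP libraries, at 257 ± 6.68 and 246 ± 20.8 CPM. The groups overlapped, and the log2 fold change was -0.06 (SE 0.0975, adjusted p 0.676). POLR1B, the other catalytic subunit (ENSG00000125630; chromosome 2, 112541915 to 112577150, plus strand), was counted 1119 and 913 times in control and 1382 and 1468 times in SNP libraries. Its levels were 167 ± 7.41 and 182 ± 11.6 CPM, and its log2 fold change of 0.12 (SE 0.101) did not pass, with an adjusted p of 0.406. POLR1C, a subunit shared with RNA polymerase III, and POLR1E, a subunit specific to polymerase I, were at 0.27 and -0.29 on the log2 scale, with adjusted p-values of 0.354 and 0.114, and did not pass.

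Among the accessory factors, NOLC1 and UBTF changed most. NOLC1 (ENSG00000166197; chromosome 10, 102152176 to 102163871, plus strand) encodes a phosphoprotein that bridges snoRNPs and polymerase I. It was counted 971 and 834 times in control and 1954 and 1644 times in SNP libraries, and rose from 149 ± 1.19 to 230 ± 23.2 CPM (log2 fold change 0.62, SE 0.103, adjusted p 1.40e-04). UBTF (ENSG00000108312; chromosome 17, 44205033 to 44221626, minus strand) encodes the factor that binds and opens the rRNA gene promoter. Its counts were 746 and 656 in the controls, then 1286 and 1242 after SNP, and its level rose from 116 ± 1.00 to 161 ± 0.600 CPM (log2 fold change 0.48, SE 0.102, adjusted p 0.00148). For both genes the groups were apart and the control libraries close to each other. The others were DDX21, an RNA helicase of the nucleolus, at a log2 fold change of 0.47, RRN3, which recruits the polymerase to the promoter, at 0.36, and TCOF1, the nucleolar scaffold treacle, at 0.31. RRN3 has pseudogene copies, so its counts are uncertain, and without control a neither RRN3 nor TCOF1 was called. RRN3 was also not called without control b, nor TCOF1 with the RPKM totals. The acidic tail of UBTF gives the stretch of its coding sequence richest in guanine over cytosine, which lies on chromosome 17, 44207532 to 44207591, minus strand of GRCh38, and is shown beside the NPM1 tract because both are made of the same kind of codon.
UBTF, bases 2032 to 2091 of the coding sequence: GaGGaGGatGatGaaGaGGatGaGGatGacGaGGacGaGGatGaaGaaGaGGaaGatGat
All 20 codons of the stretch begin with GA, with 27 guanines against 2 cytosines, although over the whole coding sequence the excess was 4.01 percentage points.

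The box H/ACA proteins, which together convert uridine to pseudouridine in rRNA and are also held by telomerase RNA, did not change in the same direction. The enzyme DKC1 and its partner GAR1 rose, while the other core partners, NHP2 and NOP10, fell. With composition offsets, described further on, DKC1, GAR1, NHP2 and NOP10 were at 0.27, 0.42, -0.41 and -0.55 and were not called. GAR1 (ENSG00000109534; chromosome 4, 109815510 to 109824740, plus strand) was counted 41 and 38 times in control and 133 and 108 times in SNP libraries. That is 6.53 ± 0.299 against 15.4 ± 1.94 CPM (log2 fold change 1.23, SE 0.239, adjusted p 6.50e-04), the largest rise among the members. DKC1 (ENSG00000130826; chromosome X, 154762742 to 154777689, plus strand), counted 287 and 218 times in control and 640 and 534 times in SNP libraries, rose from 41.5 ± 3.93 to 74.9 ± 8.01 CPM (log2 fold change 0.85, SE 0.131, adjusted p 7.06e-05). The groups were apart for both. NOP10 (ENSG00000182117; chromosome 15, 34341713 to 34343177, minus strand) was counted 70 and 57 times in control and 48 and 23 times in SNP libraries, or 10.5 ± 0.478 and 4.51 ± 2.16 CPM. Its log2 fold change was -1.21 (SE 0.312, adjusted p 0.00660), the largest fall among the members, and the SNP libraries differed from each other; without SNP b it was -0.79 with an adjusted p of 0.0612. NHP2 (ENSG00000145912; chromosome 5, 178149460 to 178153967, minus strand) was counted 210 times in each control and 213 and 162 times in SNP a and b. After scaling that is 34.8 ± 3.46 and 23.9 ± 4.11 CPM, with a log2 fold change of -0.54 (SE 0.166, adjusted p 0.0200). Exons of RMND5B cover 27.4% of the NHP2 exons, so the division of reads there is uncertain, and NHP2 was not called without control b, without SNP b or by DESeq2.

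Of the 3 box C/D proteins, which methylate the ribose of rRNA, FBL and NOP58 were called higher and NOP56 was not. FBL (ENSG00000105202; chromosome 19, 39834458 to 39846414, minus strand) encodes the methyltransferase fibrillarin. It was counted 337 and 338 times in control and 575 and 555 times in SNP libraries, 56.0 ± 5.68 and 72.2 ± 0.298 CPM, with a log2 fold change of 0.37 (SE 0.122, adjusted p 0.0299). FBL was not called without either control library or by DESeq2. NOP58, a scaffold of the particle, rose by 0.51 on the log2 scale, and its partner NOP56 had a log2 fold change of 0.12. Among the modification enzymes, NOP2, which methylates a cytosine of the large subunit RNA, was called at 0.53, with 54.4% of its exons shared with AC006064.6, and was not called without control a. NAT10, the rRNA acetyltransferase, had a value of -0.11 and was not called. Neither EMG1 entry was called. The first was counted 335 and 332 times in control and 466 and 509 times after SNP, with a log2 fold change of 0.17. The second was counted 55 and 49, then 95 and 51 times, with 0.12. Of the 6268 exon bases of the first entry, 3100 are shared with LPCAT3. The guanine-richest stretches of GAR1, FBL and NOP10 are set together because GAR1 and NOP10 sit in the same particle while their transcripts differed in direction and composition, and FBL is the enzyme of the other particle.
GAR1, bases 547 to 606 of the coding sequence: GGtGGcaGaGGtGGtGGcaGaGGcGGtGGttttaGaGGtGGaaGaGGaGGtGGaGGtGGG
FBL, bases 130 to 189 of the coding sequence: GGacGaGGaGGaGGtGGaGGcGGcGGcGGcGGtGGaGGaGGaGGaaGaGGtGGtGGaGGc
NOP10, bases 25 to 84 of the coding sequence: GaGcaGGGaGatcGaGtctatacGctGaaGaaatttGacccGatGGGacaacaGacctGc
GAR1 and FBL carry runs of GG-initial glycine codons with arginine codons between them, 35 guanines to 3 cytosines and 38 to 6. NOP10 holds 18 guanines and 13 cytosines in its stretch of largest excess. Over the coding sequence guanine exceeded cytosine by 18.4 percentage points in GAR1 and 9.55 in FBL, and fell short of it in NOP10, where the difference was -12.5.

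**Figure D2:**
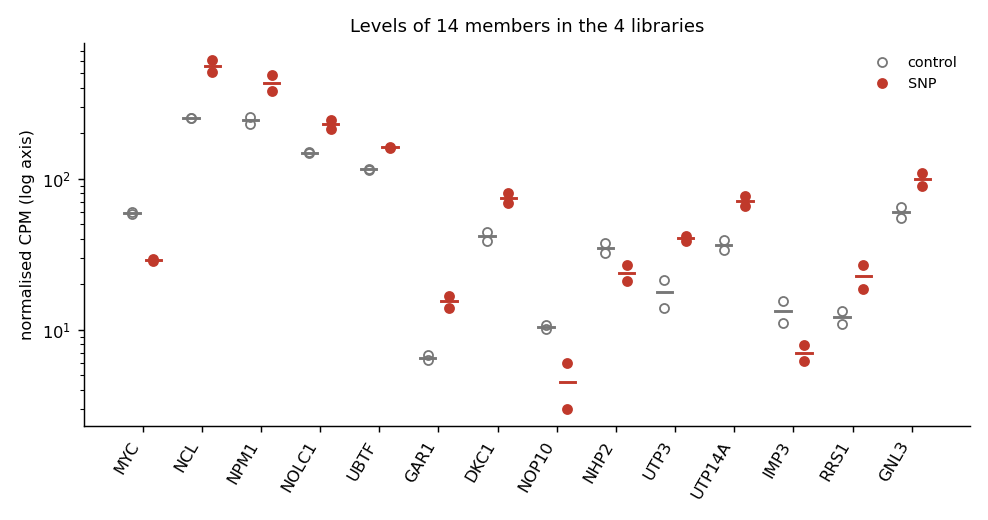
Normalised CPM on a log axis for 14 members, with an open grey point for each control library, a filled red point for each SNP library and a bar at each group mean. MYC, NOP10, NHP2 and IMP3 have both SNP points below both control points, and the other 10 genes have them above.

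Small subunit factors rose in 10 of 18 members, with a median log2 fold change of 0.35, and IMP3 alone among them fell. These are 55.6% higher and 5.56% lower, against 13.6% and 12.6% of all genes tested. With the composition offsets, described further on, UTP14A, UTP18 and WDR43 were called higher among these members, and IMP3 lower. UTP proteins of the processome, the large particle that folds and cuts the precursor of the small subunit, were called higher in 5 of 6 cases. UTP3 (ENSG00000132467; chromosome 4, 70688479 to 70690551, plus strand), counted 139 and 78 times in control and 334 and 298 times in SNP libraries, rose from 17.6 ± 5.37 to 40.3 ± 2.41 CPM (log2 fold change 1.18, SE 0.181, adjusted p 6.75e-05). UTP14A (ENSG00000156697; chromosome X, 129906121 to 129929761, plus strand), counted 255 and 189 times in control and 614 and 511 times in SNP libraries, rose from 36.4 ± 4.08 to 71.8 ± 7.80 CPM (log2 fold change 0.97, SE 0.135, adjusted p 2.56e-05). For both genes the groups were far apart, although the controls of UTP3 also differed from each other. UTP18, UTP15 and UTP6 rose by 0.81, 0.58 and 0.35 on the log2 scale, and UTP20 had a value of -0.06. WDR43 and WDR3, further processome subunits, rose by 0.80 and 0.36 on that scale, and WDR75 had a value of 0.08. LTV1, which acts on the late cytoplasmic particle, rose by 0.82, the processome protein NOP14 by 0.37 and the helicase DDX10 by 0.34. Exons of LTV1, NOP14 and WDR3 were shared with another gene over 27.7%, 17.1% and 17.1% of their length. UTP6, NOP14 and DDX10 were not called by DESeq2, and these and WDR3 were not called without control a, without control b or without SNP a. Without the filter on low counts UTP6 and NOP14 were also not called. The late factors BYSL, RRP12 and NOB1, the last being the nuclease that makes the final cut, had values of 0.27, 0.16 and -0.32, the snoRNP protein RRP9 of 0.27 and IMP4 of 0.21, and none was called.

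IMP3 and IMP4 bind the snoRNA that guides the first cuts, and their values had opposite signs. IMP3 (ENSG00000177971; chromosome 15, 75639085 to 75648706, minus strand) was counted 72 and 87 times in control and 49 and 61 times in SNP libraries, and fell from 13.3 ± 3.07 to 7.04 ± 1.23 CPM (log2 fold change -0.91, SE 0.256, adjusted p 0.0118). Its groups did not overlap. Exons of SNX33 cover 31.2% of the IMP3 exons, and IMP3 was not called without control b, without SNP a or by DESeq2. The stretches of UTP3 and IMP3 are shown as a member that rose and a member that fell within the same particle; they lie on chromosome 4, 70688954 to 70689013, plus strand, and on chromosome 15, 75639632 to 75639691, minus strand of GRCh38.
UTP3, bases 277 to 336 of the coding sequence: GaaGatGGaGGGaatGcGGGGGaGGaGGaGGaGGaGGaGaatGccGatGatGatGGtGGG
IMP3, bases 478 to 537 of the coding sequence: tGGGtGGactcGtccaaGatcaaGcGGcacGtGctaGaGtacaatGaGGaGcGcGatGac
The UTP3 stretch has 33 guanines and 3 cytosines with 11 codons that begin with GA, and the IMP3 stretch has 21 guanines and 13 cytosines. The coding sequence as a whole had an excess of 10.9 percentage points in UTP3 and of -0.36 in IMP3. Such stretches were not limited to members that rose. Among members not called, the stretch of largest excess held 35 guanines and 4 cytosines in POLR1A. It held 28 and 6 in UTP20, and 26 and 5 in NOB1.

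Large subunit factors rose in 7 of 16 members, or 43.8%, against 13.6% of all genes tested. None of these members was lower in edgeR's or DESeq2's test, nor at an unadjusted p under 0.05. Among all genes tested 12.6% were called lower by edgeR. With the composition offsets, described further on, PES1, RRP1B and EBNA1BP2 were called higher among the large subunit members. The median log2 fold change of the large subunit members was 0.25. RRS1 (ENSG00000179041), an early assembly factor, was counted 71 and 75 times in control and 214 and 144 times in SNP libraries and rose from 12.1 ± 1.67 to 22.8 ± 5.85 CPM (log2 fold change 0.92, SE 0.213, adjusted p 0.00299). GNL3 (ENSG00000163938; chromosome 3, 52681156 to 52694492, plus strand) encodes nucleostemin, a GTP-binding protein of the nucleolus. It was counted 359 and 365 times in control and 869 and 689 times in SNP libraries, and rose from 60.1 ± 6.67 to 99.4 ± 14.2 CPM (log2 fold change 0.73, SE 0.127, adjusted p 2.52e-04). In both genes SNP a was the higher SNP library, and the groups did not overlap. Of the complex of PES1, BOP1 and WDR12, which is needed to cut the spacer between the large subunit RNAs, PES1 rose by 0.69 on the log2 scale, and BOP1 and WDR12 had values of 0.20 and 0.18 that did not pass. EBNA1BP2, RRP1, NOC2L and RRP1B rose by 0.68, 0.59, 0.34 and 0.30 on the same scale, with 18.8% of the EBNA1BP2 exons shared with CFAP57. RRP1B was not called by DESeq2, with the RPKM totals, without the filter on low counts, or without control a, control b or SNP a. NOC2L was not called without control a or without control b, and RRP1 was not called without control a. The other 7 large subunit members, GNL2, NOP16, BRIX1, NIP7, MRTO4, DDX18 and DDX56, lay between -0.12 and 0.28.

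Other genes of the same steps, from lists by role, were read from the same fit. Of 119 other ribosome biogenesis genes tested, 41 were called higher and 6 lower, and their median log2 fold change was 0.21. These are 34.5% and 5.04%, against 13.6% and 12.6% of all genes tested. By DESeq2, 8.62% of all genes tested were called higher and 7.74% lower. The 41 other large subunit factors held 18 higher and 3 lower genes. SURF6, a nucleolar matrix protein, rose from 36.3 ± 1.64 to 74.0 ± 4.89 CPM (log2 fold change 1.02, adjusted p 8.13e-06), and WDR74 fell from 245 ± 1.93 to 108 ± 23.6 CPM (-1.17, adjusted p 7.46e-07). The 36 other small subunit factors held 13 higher and 1 lower, with TSR2, an escort of a ribosomal protein, at 1.03 and DDX49, a helicase, at -0.55. With composition offsets, described further on, these were 0.52 and -0.30 and neither was called (adjusted p 0.0695 and 0.137), and DDX49 was not called without control b. Of 10 other polymerase I genes 4 were called by edgeR, all higher, and 1 by DESeq2, and CD3EAP, a polymerase I subunit whose exons are 43.5% shared with ERCC1, had the largest value, 0.80, though it was not called by DESeq2, without control b or without SNP b. The 15 other snoRNP and modification genes held 1 higher, RRP8 at 0.52, and 2 lower, and the median of the list was -0.05. These shares, 6.67% higher and 13.3% lower, were below and near those of all genes tested. RRP8 was not called without control b. TRMT112, the lowest at -0.49, passed in 6 of 13 alternatives and was not called by DESeq2, with the RPKM totals, without the filter on low counts, with the composition offsets, or without control b or SNP b. Of 17 trimming and decay genes, exosome subunits and partners, 5 were called higher by edgeR and 2 by DESeq2, and none lower by either, with 1 lower at an unadjusted p under 0.05. MPHOSPH6, the highest at 0.74, passed in 8 of 13 alternatives. It was not called by DESeq2 or without control a or SNP a, and was at 0.15 with the composition offsets.

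**Figure D3:**
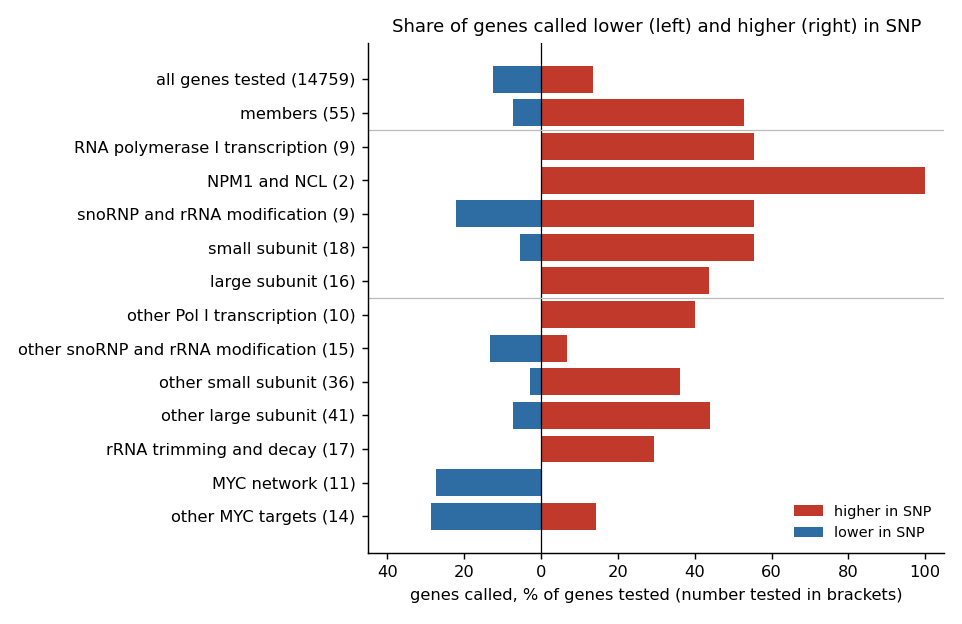
Bars to the right give the percentage of tested genes called higher in SNP and bars to the left the percentage called lower, for all genes, the members, their role groups and the lists of other genes, with the number tested in brackets. Among members 52.7% were higher and 7.27% lower, against 13.6% and 12.6% of all genes; the MYC network list has no bar to the right.

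The log2 fold changes of the members ran with the base composition of their transcripts. Across the 55 members the Spearman correlation of the log2 fold change with guanine minus cytosine content was 0.773, across 119 other ribosome biogenesis genes it was 0.539, and across 14724 genes tested it was 0.480. Genes share the 4 libraries and are not independent replicates. The members had a median guanine excess of 3.30 percentage points, against 1.04 for all genes tested. Members called higher had a median of 5.20, those called lower -1.56 and those not called 2.28. When the members were ordered by this measure in 3 groups, the 19 with the least guanine over cytosine held 4 higher and 4 lower calls, the 18 in the middle held 9 higher, and the 18 with the most held 16 higher. The median log2 fold changes were -0.06, 0.32 and 0.77. All tested genes in the same ranges had medians of -0.09, 0.20 and 0.39, and 7.22%, 24.0% and 41.7% of them were called higher. Members called higher were spread widely among the genes within 0.5 percentage points of each in this measure. By log2 fold change, FBL, NOC2L, UTP6 and RRS1 stood at percentiles 39.3, 45.1, 50 and 63.5 of such genes. NCL, NOLC1, PES1 and UTP14A stood at percentiles 88.5, 91.3, 92.7 and 93.4. The coding sequence was read for the 52 members off chromosome 8, which leaves out MYC, RRS1 and BOP1. In the coding sequence alone, the 28 of these 52 called higher had a median guanine excess of 6.12 percentage points and the 24 others 2.40. Codons that begin with GA, as in the tracts of NPM1 and UBTF printed above, made up a median of 14.9% and 13.05% of codons in these groups.

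**Figure D4:**
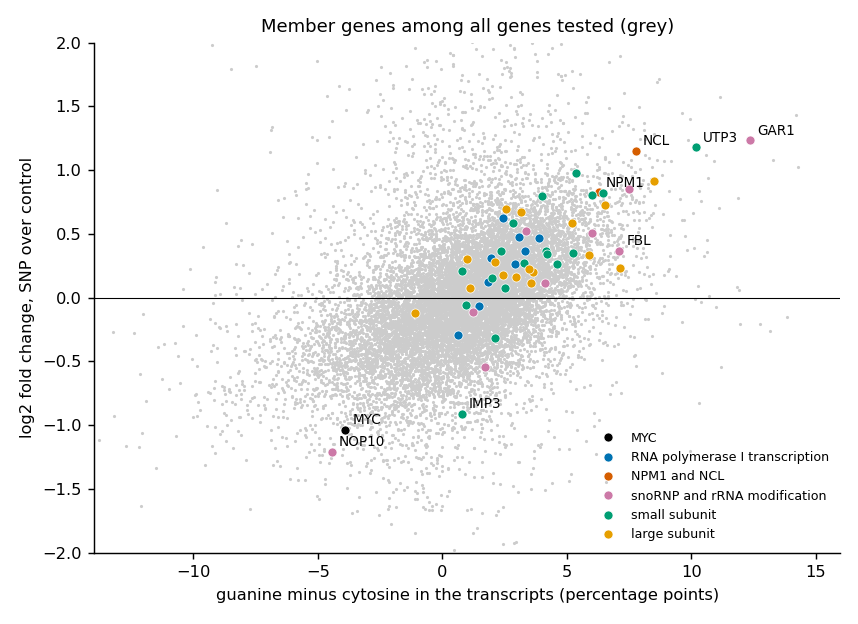
Guanine minus cytosine in the transcripts, in percentage points, on the x axis, and the log2 fold change of SNP over control on the y axis, with members coloured by role over all genes tested in grey (154 genes lie outside the axes). Members run from NOP10 and MYC at the lower left to UTP3 and GAR1 at the upper right.

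Offsets for guanine over cytosine, GC content and gene length were fitted in each library across all genes, and the test was repeated. With these offsets 12 members were called higher and 2 lower, and the members' median log2 fold change was 0.11. The same fit called 9.89% of all genes tested higher and 8.81% lower. The 12 were UBTF, TCOF1, NOLC1, NPM1, NCL, NOP2, UTP14A, UTP18, WDR43, PES1, RRP1B and EBNA1BP2, and the 2 were MYC and IMP3. NCL was at 0.54 (adjusted p 2.13e-04), NOLC1 at 0.54 (5.18e-04), UTP14A at 0.58 (0.00228) and NPM1 at 0.30 (0.0182). GAR1, UTP3, DKC1, RRS1 and GNL3 were no longer called, with values of 0.42, 0.49, 0.27, 0.39 and 0.23, and neither were NOP10 at -0.55 and NHP2 at -0.41. FBL, UTP6 and NOC2L changed sign, FBL to -0.08. Values for POLR1A and POLR1B were -0.06 and 0.07. The offsets remove any difference between the groups that follows composition, whatever its source, and the part of composition in a member's change was not tested otherwise.

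**Figure D5:**
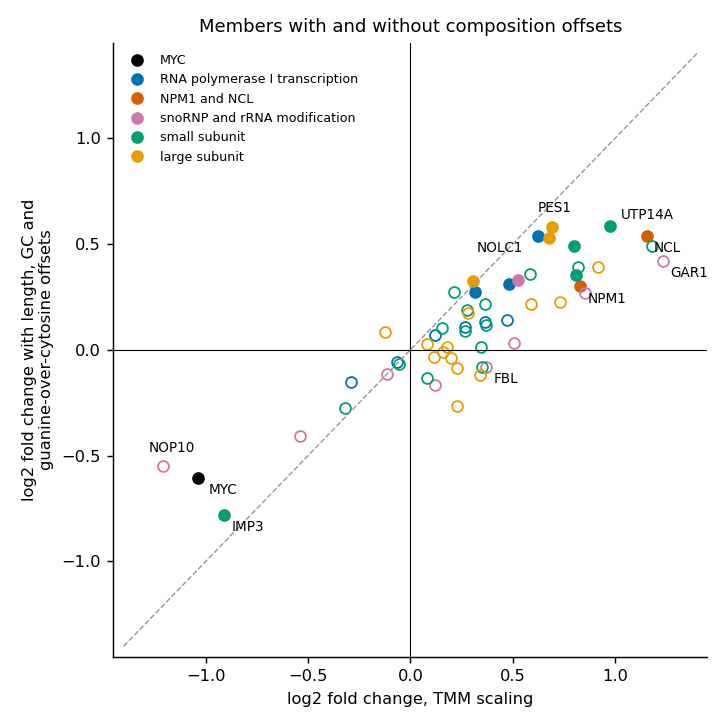
Log2 fold change of each member with TMM scaling on the x axis and with the composition offsets on the y axis, the dashed line marking equal values; filled points passed the threshold with offsets. Most members that rose lie below the line, and MYC lies above it at -0.60.

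MYC itself fell. MYC (ENSG00000136997; chromosome 8, 127735434 to 127741434, plus strand, exons shared with no other gene) was counted 377 and 340 times in controls a and b, and 232 and 220 times in SNP a and b. The normalised levels were 58.1 and 60.4 CPM in control and 29.2 and 28.5 CPM in SNP libraries, so the groups were far apart and the replicates close. Its mean fell from 59.3 ± 1.57 to 28.9 ± 0.481 CPM, a 2.05-fold lower level (log2 fold change -1.04, SE 0.135, adjusted p 1.19e-05). Among all genes tested MYC stood at percentile 2.09 by log2 fold change and at percentile 5.96 by guanine minus cytosine content, where it has 26.6% guanine and 30.5% cytosine. The 438 genes within 0.5 percentage points of MYC in that measure had a median log2 fold change of -0.39, and MYC was at percentile 5.02 among them. With the composition offsets the value was -0.60 (adjusted p 0.00252), and it was -0.60 too when the replicate letters were added to that fit. These were the smallest falls over the 13 alternatives. The largest was -1.07, and MYC passed in all of them. Without MYC the other 54 members held 29 higher and 3 lower calls and a median log2 fold change of 0.33.

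The MYC network, the proteins that pair with MAX or with its relative MLX, held 3 genes called lower among 11 tested. That is 27.3%, against 12.6% of all genes tested, in a list of few genes. The median log2 fold change of the list was -0.15. No gene of the list was higher by edgeR or DESeq2, or at an unadjusted p under 0.05. MXD3, a repressor that pairs with MAX, fell from 16.4 ± 2.92 to 10.1 ± 2.38 CPM (log2 fold change -0.71, adjusted p 0.0264), with 22.5% of its exons shared with PRELID1. It was not called by DESeq2 (adjusted p 0.120 from the Wald test), without control a or without SNP a, and DESeq2 called 2 of the 3 genes. MLX and its partner MLXIP, a glucose-responsive factor, fell by 0.58 and 0.50 on the log2 scale, and with the composition offsets were at -0.33 and -0.12 and not called. MYCN was counted 75 and 55 times in control and 50 and 73 times in SNP libraries, so its groups overlapped, and its log2 fold change of -0.44 did not pass (adjusted p 0.232). MAX had a value of 0.20 (adjusted p 0.280). Of 14 textbook targets of MYC outside ribosome biogenesis that were tested, 2 were higher and 4 lower, and the median was -0.16. These are 14.3% and 28.6%, against 13.6% and 12.6% of all genes tested, so the share called higher was near that background. HSPD1, a mitochondrial chaperonin whose processed pseudogenes leave its count uncertain, rose from 201 ± 30.7 to 362 ± 57.9 CPM (0.84, adjusted p 2.43e-05), and TFRC, the transferrin receptor, rose by 0.73. SRM, spermidine synthase, fell from 36.8 ± 6.22 to 19.2 ± 2.12 CPM (-0.93, adjusted p 4.09e-04), and was at -0.40 with the composition offsets, where it was not called (adjusted p 0.0719). The lowered targets ENO1, EIF4A1 and CAD had values of -0.70, -0.50 and -0.28, and CAD was not called by DESeq2 or with the offsets. CCND2 had counts of 0, 0, 0 and 1 and was not tested.

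The E-box of MYC was searched in the promoters of the members as the letters CACGTG, which read the same on both strands, in windows of 250 bases before to 50 bases after the gene's start from RefSeq (GRCh38.p14). It was present in 20 of the 45 member promoters that had an entry, or 44.4%, against 8.77% of 27305 promoters and 12.5% of the 10416 promoters of tested genes. By call, 12 of 24 members called higher, 7 of 18 not called and 1 of 3 called lower held it. The median GC content of the windows was 63.8% for members and 64.7% for tested genes. A match is a description of the letters and not of binding, and no match says only that these letters are not in the window. Promoter stretches upstream of the gene are printed for UTP18 and UTP14A, which rose, for UTP20, which was not called, and for NOP10, which fell, to show the motif in members of each kind. Each is 5′ to 3′ on the gene's strand with the motif in capitals.
UTP18, chr17:51260427-51260492, plus strand: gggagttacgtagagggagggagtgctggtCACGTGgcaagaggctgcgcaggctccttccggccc
UTP14A, chrX:129905914-129905958, plus strand: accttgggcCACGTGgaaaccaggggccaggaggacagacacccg
UTP20, chr12:101280065-101280104, plus strand: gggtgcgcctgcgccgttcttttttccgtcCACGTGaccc
NOP10, chr15:34343271-34343336, minus strand: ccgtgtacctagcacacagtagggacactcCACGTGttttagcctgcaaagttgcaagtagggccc
The printed motif begins 89 bases before the start in UTP18, 241 in UTP14A, 10 in UTP20 and 170 in NOP10. The windows of UTP18 and NOP10 each hold a further match that is not printed, in NOP10 at 11 bases before the start.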

How the data were processed

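RNA of SH-SY5Y cells was sequenced in 4 libraries, grouped by sample title as control or SNP with the letters a and b. The deposited expression values are raw read counts of each gene, in whole numbers, per the file headers and the values. The deposited TPM values are scaled to the same total in every library, and the deposited RPKM values are scaled per kilobase and to a read total larger than the sum of the counts, per the file headers. The genome build was GRCh38 per the submitters' processing notes; the aligner, the counter and the use of strand are not given in the sources used here.

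Counts were tested with edgeR 4.0.16 in R 4.3.3: filterByExpr (minimum count 10, minimum total count 15), TMM scaling, and the quasi-likelihood test on all 4 libraries without covariates, with p-values adjusted by Benjamini-Hochberg over the 14759 genes tested and a threshold of 0.05. CPM values use TMM-scaled totals, and standard errors are the absolute log2 fold change over the root of the F value. TPM served for levels per length. Positions, exon overlaps on either strand and base composition came from GENCODE 29. Offsets were lowess curves per library (span 0.5, 3 iterations). The scripts were tested on simulated counts. Alternatives, with DESeq2 1.42.0 among the tools, are given in the closing section.

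The members, gene lists and tests were chosen with earlier results of these data known. Genes were named by a rule: MYC, NPM1, NCL, FBL, DKC1, UBTF, POLR1A and POLR1B, then in each role group up to 2 members with the largest rise and up to 2 with the largest fall among those called whose groups did not overlap, then 1 each way in each other list; other members appear by symbol in their group. MYCN, MAX, TFRC, TWISTNB, POLR1D, ZNRD1 and the further lowered genes of the MYC lists were named after their values were seen. The result of 1 further marker list is not reported here.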

Additional observations from a re-analysis of the deposited data

How the results depend on the processing

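Under the 13 alternatives, MYC, NCL, NPM1, NOLC1, UBTF, UTP14A, SURF6, WDR74 and HSPD1 kept their direction and their side of the threshold. Of all genes tested, 3861 were called (2002 higher, 1859 lower); DESeq2's Wald test called 2415 (1272 and 1143), and the read totals implied by RPKM left 1218 lower. Leaving out each library in turn gave 2447 to 4144 genes called, 1244 to 2155 higher and 1162 to 1989 lower, with 2482 and 2447 called without control a and without control b, and 4144 without SNP b; the cause was not tested. The 33 members called became 22 to 32 in those fits, with 18 to 30 higher, 2 to 4 lower and medians from 0.29 to 0.38. DESeq2 called 2 members lower. The median became 0.39 with the RPKM totals. The composition offsets called 2761 genes (1460 and 1301), and 2988 (1572 and 1416) with the replicate block added. They gave 14 members, 12 higher and 2 lower, and a median of 0.11; with the replicate block added they gave 15, 13 and 2, and 0.11. FBL was reversed in both, at -0.082 and -0.081, and the cause was not tested. The replicate block alone gave 29 higher and 4 lower members and changed no member's call. It called 4487 of all genes, with 1 residual degree of freedom. The correlation of a minus b differences between the groups was 0.050. With 2 libraries per group this cannot tell whether the letters pair the libraries. The lowest count of a member tested was 23, of NOP10 in SNP b, so its values were the least precise by counting.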
